A study of Mus musculus with 6 samples.

Results

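The 33 genes described here carry out and control cholesterol synthesis, and all 33 were found by gene name among the 55401 genes of the deposited expression table. They comprise 7 enzymes of the mevalonate arm, 11 enzymes of the squalene and sterol arm, the synthase Ggps1 at the branch to longer isoprenoids, 5 genes of sterol sensing, 5 genes of the liver X receptor (LXR) axis, and 4 genes of sterol transport and storage. Total RNA was sequenced from bone marrow of 6 mice, all of them secondary recipients of HoxA9/Meis1 leukaemia. The Lym group holds lymphoid leukaemic stem cells (Lym+) of mice 62, 63 and 87, which had been given such cells. The Lin- group holds Lin-cKit+ progenitor cells of mice 56, 57 and 91, which had been given Lin- leukaemic stem cells. Every mouse gave 1 library, both groups carry the same leukaemia drivers, and neither strain nor age of the mice is given in the labels used here. The library of Lym mouse 62 was made from less RNA than the other libraries. Whether mice of a group share a donor leukaemia is not given either, so the tests take each mouse as independent.

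Cells make cholesterol from acetyl-CoA by way of mevalonate, the isoprenoid farnesyl diphosphate, squalene and lanosterol. When sterols in the endoplasmic reticulum are low, Scap carries the SREBP transcription factors to the Golgi apparatus, where they are cut free to switch on the enzymes of this route, and Insig proteins hold Scap back when sterols are plentiful. Oxysterols made from surplus cholesterol activate the LXR receptors, which in turn switch on export pumps, so that synthesis and export are usually regulated in opposite directions.

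Libraries held 18537700 to 22634286 reads assigned to genes, and values below are normalized counts, in which 1 read is worth 0.880 to 1.12 depending on the library. A floor of 3 reads equals 2.64 to 3.36 normalized counts, which covers counting error only. Wherever 3 values are given for a group, they stand in the order of mice 62, 63 and 87 for Lym and 56, 57 and 91 for Lin-. Fold changes are differences of log2(normalized count + 2), Lym minus Lin-, shown ± the standard error. Tests are from limma, with Benjamini-Hochberg adjustment over the 14273 genes that reached 10 normalized counts in 3 or more libraries. Among early B markers, Pax5 reached at most 0.953 and Cd79a at most 4.48 in any library, so these defining B-lineage genes were at or near the floor in cells labelled lymphoid. Cd79b, the partner of Cd79a, was above the floor throughout, at 255, 28.0 and 244 in the Lym animals, against 414, 45.8 and 284 in the Lin- animals, and made up most of the list's sum in Lym mouse 87 and in Lin- mice 56 and 91. Of the others, Il7r stood at 424, 82.8 and 14.3 in the Lym animals, against 2.65, 3.52 and 4.13 in the Lin- animals, and Ebf1 and Dntt were likewise higher in every Lym mouse, most of all in mouse 62. Rag1 had 104 in Lym mouse 62 and was under the floor in the other libraries. The summed level of 10 early B and lymphoid markers was 1531, 286 and 314 in the Lym animals, against 437, 97.7 and 308 in the Lin- animals. Markers of erythroid, T and NK, and stromal cells, each list summed by itself, reached at most 35.9 in any library. That highest sum was all Cd3e, in Lym mouse 62. The Lym library of mouse 87 stood apart from its group in many genes. The 3 Lym values all lay on one side of the 3 Lin- values in 15.6% of genes tested with all 6 libraries, in 43.4% without Lym mouse 87, and in 21.9% to 27.5% without any other single library. Results that rest on that library are therefore given with and without it, and leaving it out favours differences for genes in general.

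Of the 33 sterol genes, 32 passed the filter on low values, and the exception was Nr1h3, the LXR alpha receptor. None of the 32 passed an adjusted p of 0.05 in limma, as for 0% of all genes tested, and the lowest adjusted p was 0.447, for Sc5d. At an unadjusted p under 0.05 there were 5 of 32 sterol genes, 2 higher and 3 lower in Lym, beside 10.2% of all genes tested, 5.96% higher and 4.27% lower. edgeR on recovered reads also called none of the 32, beside 0% of all genes. DESeq2 called none of the 33, beside 1.16% of all genes, 0.96% higher and 0.2% lower. In the authors' deposited table, which called 0.32% of its genes, the lowest adjusted p of the 33 was 0.44, for Soat1. The median log2 fold change of the 32 was -0.02, with 16 above and 16 below 0, beside a median of -0.01 over all genes tested. Without Lym mouse 87, limma put 5 of the 32 past the threshold, beside 9.67% of all genes (5.49% higher and 4.18% lower). Abca1, Abcg1, Mylip and Npc1 were higher in Lym there and Soat1 was lower, and their values follow. In these bulk samples, fewer cells of a type and less RNA per cell cannot be told apart.

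**Figure D1:**
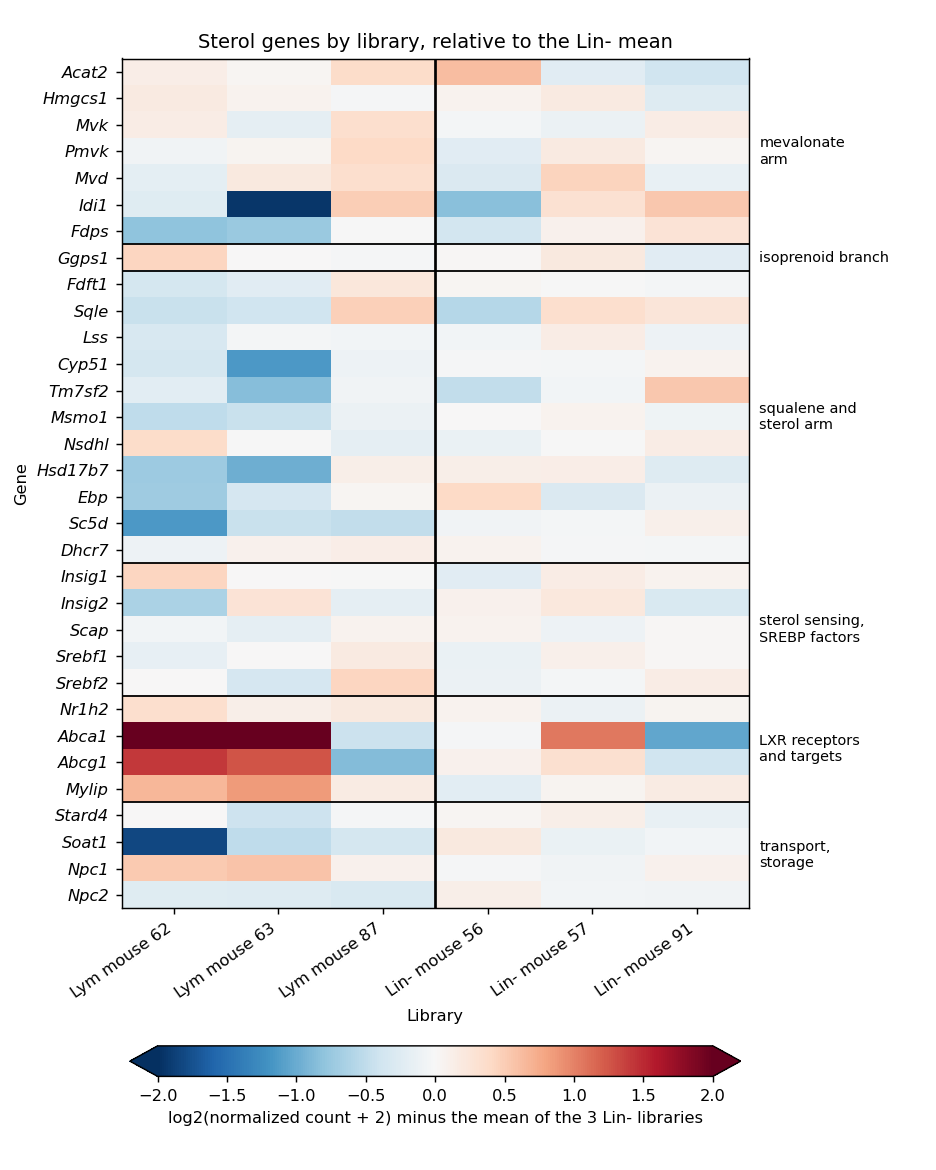
Each row is 1 of the 32 tested sterol genes and each column a library, with Lym left of the line. Colour gives log2(normalized count + 2) minus the mean of the 3 Lin- libraries, and colours saturate at 2 in either direction. Abca1 and Abcg1 were far above the Lin- mean in Lym mice 62 and 63 and below it in Lym mouse 87, while several enzymes of the squalene and sterol arm were below it in mice 62 and 63.

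The 7 mevalonate-arm enzymes differed little between the groups, and none passed the test (adjusted p from 0.548 to 0.917). Their summed level was 1659, 1561 and 1847 in the Lym animals and 1642, 1823 and 1615 in the Lin- animals, so the groups overlapped. Hmgcs1, the synthase that makes HMG-CoA, was the most abundant of them and stood at 834, 774 and 721 in the Lym animals, against 775, 839 and 615 in the Lin- animals. Its log2 fold change of 0.07 ± 0.16 had a 95% interval of -0.30 to 0.44. The kinases Mvk and Pmvk and the decarboxylase Mvd, which turn mevalonate into isopentenyl diphosphate, had log2 fold changes of 0.10 to 0.13, and the thiolase Acat2, which joins the first acetyl units, had 0.18. The Lym and Lin- values of these 4 overlapped.

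Idi1 and Fdps varied most among the Lym mice in this arm. Idi1, the isomerase of isopentenyl diphosphate, was at 37.0, 10.1 and 62.9 in the Lym animals and at 23.8, 55.4 and 65.0 in the Lin- animals. The low value of Lym mouse 63 rests on 9 reads. Fdps, which makes farnesyl diphosphate, was at 154, 160.0 and 267 in the Lym animals, against 209, 286 and 326 in the Lin- animals. Lym mice 62 and 63 lay below all Lin- mice in Fdps and mouse 87 lay among them, with a log2 fold change of -0.52 ± 0.29 (adjusted p = 0.548). Fdps shares exon bases with another gene on the same strand, so its reads may have been split. Ggps1, which extends farnesyl to geranylgeranyl diphosphate, was at 626, 468 and 456 in the Lym animals and at 476, 532 and 399 in the Lin- animals, with overlapping groups.

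In the squalene and sterol arm, 9 of 11 enzymes had a fold change below 0, beside 7320 of all 14273 genes tested. The median of the 11 was -0.33 on the log2 scale, beside -0.01 over all genes tested, but none passed the test (lowest adjusted p = 0.447). All 11 were read in the same 6 libraries, so they are not separate observations. Sc5d, the sterol desaturase close to the end of the route (chromosome 9, 42251595 to 42264256 in GRCm38, protein-coding), was at 158, 261 and 252 in the Lym animals, against 338, 346 and 381 in the Lin- animals. All 3 Lym values lay below all 3 Lin- values, with a log2 fold change of -0.69 ± 0.24 (adjusted p = 0.447, and 0.0818 without Lym mouse 87). Without Lym mouse 62, the lowest of the 6, the log2 fold change was -0.47 (adjusted p = 0.844). Cyp51, the lanosterol demethylase (chromosome 5, 4081145 to 4104746), was at 280.4, 159 and 333 in the Lym animals, against 351, 346 and 373 in the Lin- animals. The Lym values again all lay lower, mouse 87 by a narrow margin, with a log2 fold change of -0.53 ± 0.28 (adjusted p = 0.533). Cyp51 shares exon bases with Akap9 on the opposite strand, and whether counting used the strand is not given in the sources used here. Msmo1, the methylsterol monooxygenase, was at 142, 149 and 186 in the Lym animals against 205, 214 and 189.8 in the Lin- animals, with a log2 fold change of -0.35 ± 0.22 (adjusted p = 0.588). These 3 were the only enzymes of the 18 whose groups did not overlap. This is 16.7% of them, all lower in Lym, beside 15.6% of all genes tested, 7.08% lower in Lym.

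Some other enzymes of this arm were low in Lym mice 62 and 63. Hsd17b7, a sterol keto-reductase, had 79.6 and 67.1 in Lym mice 62 and 63 and 146 in Lym mouse 87, against 146, 147 and 111 in the Lin- animals. Ebp, the sterol isomerase, was at 357, 461 and 599 in the Lym animals, against 768, 478 and 537 in the Lin- animals. Squalene synthase, Fdft1, was at 233, 254 and 349 in Lym against 306, 297 and 291 in Lin-. In these 3 genes mice 62 and 63 lay below every Lin- mouse and mouse 87 did not. Fdft1 shares exon bases with Ctsb on the opposite strand. Squalene epoxidase, Sqle, which commits squalene to sterols, was at 150.3, 154 and 285 in the Lym animals and at 137, 259 and 242 in the Lin- animals, so Lin- mouse 56 was as low as the lowest Lym mice. Dhcr7, the reductase of the last step to cholesterol, stood at 319.6, 363 and 376 in the Lym animals, against 362, 336 and 332 in the Lin- animals, with a log2 fold change of 0.04 ± 0.17. Lanosterol synthase (Lss), the dehydrogenase Nsdhl and the reductase Tm7sf2 also had overlapping groups and log2 fold changes of -0.38 to 0.06. Tm7sf2 shares exon bases with Vps51 on the same strand.

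**Figure D2:**
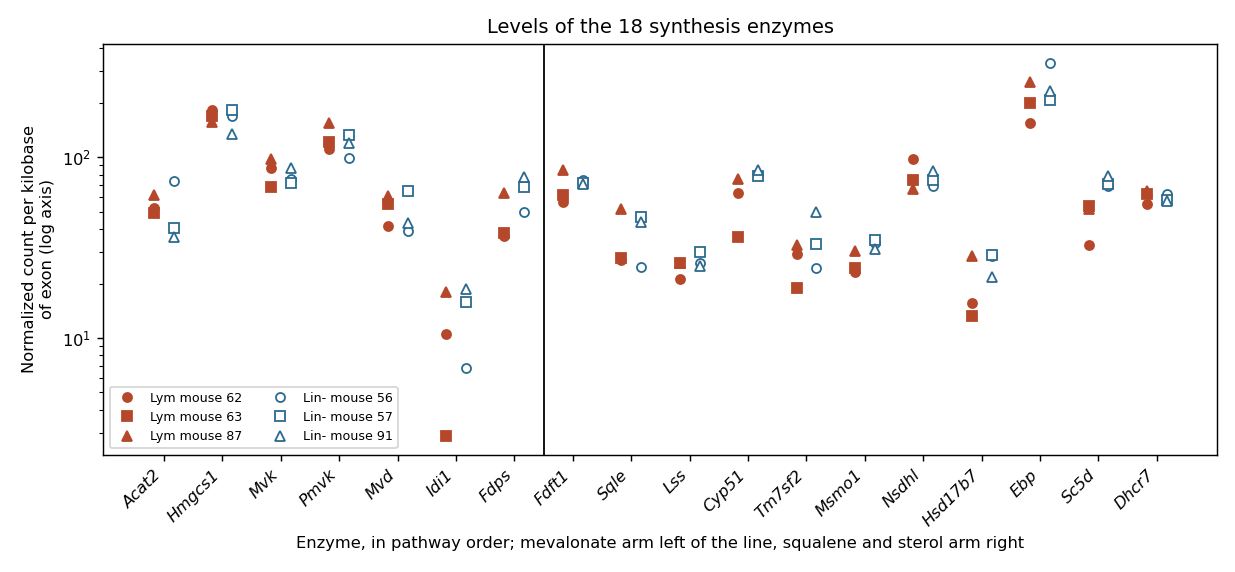
Levels of the 18 synthesis enzymes in pathway order, as normalized counts per kilobase of exon on a log axis, with filled symbols for the 3 Lym mice and open symbols for the 3 Lin- mice. Ebp and Hmgcs1 had the highest levels per kilobase and Idi1 the lowest, and in most genes Lym mouse 87 was the highest of the Lym mice.

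Set per kilobase of exon, the mean level of the 18 enzymes over the 6 libraries spanned 12.1 for Idi1 to 231 for Ebp, with Hmgcs1 next at 165 and Pmvk at 123. The transport gene Npc2 at 538 and the receptor gene Nr1h2 at 476 were the highest of the 33 on this scale. The factors Srebf2 at 258 and Srebf1 at 234 exceeded every enzyme in this mean, Srebf1 by a narrow margin. In the Lin- animals alone the mean of Ebp, 257, was above those of Srebf2 (253) and Srebf1 (233). Hsd17b7 at 22.7, Lss at 25.6 and Msmo1 at 29.4 lay at the low end of the sterol arm.

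Summed over both arms, the enzymes stood at 4016 and 4006 in Lym mice 62 and 63 and at 4985 in Lym mouse 87, against 4836, 4924 and 4801 in the Lin- animals. Lym mice 62 and 63 were the lowest of the 6 and Lym mouse 87 the highest, and the ratio of group means was 0.893. Lym mouse 87 had the highest Lym value in 14 of 18 enzymes (77.8%), beside 37.5% of all genes tested. Without it, 7 of the 18 enzymes had groups apart, all lower in Lym (38.9%, beside 21.7% of all genes in that direction), and none passed the test. Summed cycling markers (Mki67, Top2a, Ccnb1 and Cdk1) were also highest in Lym mouse 87, at 70798, against 40268 and 38576 in Lym mice 62 and 63, and the Lin- animals had 46373, 33304 and 52385. Their part in the enzyme levels was not tested.

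The sterol-sensing genes were at similar levels in both groups. Srebf2, the SREBP factor of cholesterol genes, was at 1812, 1441 and 2437 in the Lym animals and at 1676, 1767 and 2007 in the Lin- animals, and the highest and the lowest value were both in Lym. Srebf1, whose products act mainly on fatty acid genes, was at 1173, 1314 and 1479.7 in the Lym animals, against 1201, 1412 and 1334 in the Lin- animals. Its log2 fold change was 0.00 ± 0.14, with a 95% interval of -0.31 to 0.32. Scap, the escort protein of both factors, was at 1378, 1266 and 1512 in Lym, against 1509, 1341 and 1456 in Lin-. Insig1, itself a target of SREBP, was at 666, 497 and 489.8 in the Lym animals and at 423, 545 and 518 in the Lin- animals, and was highest in Lym mouse 62, where many enzymes were low. Insig2 was at 95.3, 181 and 131 in Lym, against 159.7, 173 and 121 in Lin-, with the lowest value in the same mouse. None of the 5 passed the test (adjusted p from 0.796 to 0.994).

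The LXR axis held the largest fold change of the 32 tested genes, that of Abca1, and it came from Lym mice 62 and 63. Of the receptors, Nr1h2 (LXR beta) was at 1870.6, 1599 and 1684 in the Lym animals, against 1541, 1362 and 1527 in the Lin- animals. Its groups did not overlap, with a log2 fold change of 0.22 ± 0.12 (adjusted p = 0.553). Nr1h3 (LXR alpha), which is abundant in macrophages, had 29 reads over all 6 libraries and was at 0, 4.48 and 7.62 in Lym against 3.53, 10.6 and 1.03 in Lin-. Per kilobase of exon, the mean level over the 6 libraries was 476 for Nr1h2 and 1.80 for Nr1h3. A pseudogene named after Nr1h2 exists, so some of its reads may have been shared.

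Abca1, the pump that loads cholesterol onto apolipoprotein A-I (chromosome 4, 53030787 to 53159895 in GRCm38, protein-coding), was at 1564, 1276 and 71.5 in the Lym animals, against 96.2, 204 and 46.4 in the Lin- animals. Lym mice 62 and 63 lay far above all Lin- mice, while mouse 87 lay between Lin- mice 91 and 56. The Lym mice thus differed 21.9-fold among themselves, a spread larger than in 98.8% of genes tested. The log2 fold change was 2.41 ± 1.08 (adjusted p = 0.492) with all 6 libraries and 3.83 ± 0.49 (adjusted p = 0.0043) without mouse 87.

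Abcg1, the pump that passes cholesterol to high-density lipoprotein (chromosome 17, 31057675 to 31117988), was at 1982, 1790.4 and 406 in the Lym animals, against 794, 926 and 562 in the Lin- animals. Its order over the mice resembled that of Abca1, except that mouse 87 was the lowest of all 6. The log2 fold change was 0.60 ± 0.54 (adjusted p = 0.704), and 1.34 ± 0.20 without mouse 87 (adjusted p = 0.00727). Mylip, the ubiquitin ligase also called Idol that sends lipoprotein receptors for degradation (chromosome 13, 45389742 to 45412022), was at 1458, 1658 and 1024.3 in the Lym animals, against 789.6, 959 and 1024.2 in the Lin- animals. Lym mouse 87 and Lin- mouse 91 differed by less than 1 read's worth, so the groups only just failed to overlap. The log2 fold change was 0.56 ± 0.20 (adjusted p = 0.451), and 0.76 ± 0.15 without mouse 87 (adjusted p = 0.0192). With array weights, by which limma gives less weight to libraries that fit their group poorly, Abca1 (adjusted p = 0.0384) and Mylip (0.0439) passed, beside 4.62% of all genes (2.98% higher and 1.64% lower).

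The summed level of the 5 LXR receptor and target genes was 6875 and 6328 in Lym mice 62 and 63 and 3193 in Lym mouse 87, against 3224, 3462 and 3160 in the Lin- animals. Lym mice 62 and 63 thus had the highest LXR sums and the lowest enzyme sums. Among the Lin- mice the order was the same in both sums, with mouse 57 highest and mouse 91 lowest. Macrophages express Abca1 and Abcg1 strongly, and of 7 macrophage markers C1qa had no read, Marco, C1qb, C1qc and Vcam1 were at most 4.48, and Mrc1 was at most 19.4. The sum of the 7, nearly all from Adgre1, was 1089, 1473 and 1081 in the Lym animals, against 1807, 1023 and 1247 in the Lin- animals. Progenitor markers (Kit, Cd34, Flt3 and Gata2) summed to 51156 and 44375 in Lym mice 62 and 63 and to 23573 in mouse 87, against 21259, 21507 and 21780 in the Lin- animals, so the sum was highest in Lym mice 62 and 63. Cd34 did not follow that order, at 6207, 6605 and 7099 in the Lym animals, against 4025, 4626 and 6152 in the Lin- animals, and was highest in Lym mouse 87. Their part in the LXR values was not tested.

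**Figure D3:**
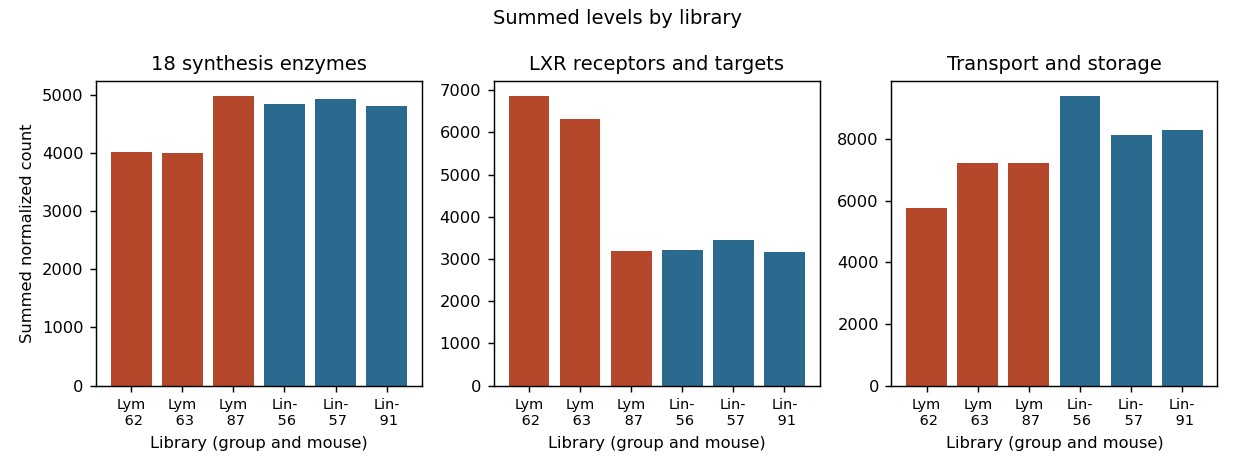
Bars give summed normalized counts per library, with the 3 Lym mice left of the 3 Lin- mice, for the 18 synthesis enzymes, the 5 LXR receptors and targets and the 4 transport and storage genes. Lym mice 62 and 63 had the lowest enzyme sums and the highest LXR sums, and Lym mouse 87 lay close to the Lin- mice in both.

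The promoters of Abca1 and of 1 of 3 start sites of Srebf1 carry a direct repeat of the kind LXR binds, that of Hmgcs1 carries a sterol regulatory element, and those of Mylip and Sc5d carry neither. They are shown because they set genes that differed between the mice beside genes that did not. Each is the 250 bases before a RefSeq start site in GRCm38.p6, written 5′ to 3′ on the strand of the gene, and capitals mark matches on either strand. The motifs searched were the direct repeat (GGTNA, any 5 bases, GGTNA), the sterol regulatory element TCACNCCAC, the E-box CACGTG and the CCAAT box, which reads ATTGG on the other strand. The GC-box GGGCGG was searched too and is left in lower case.
Abca1, chr4:53159896-53160145, minus strand: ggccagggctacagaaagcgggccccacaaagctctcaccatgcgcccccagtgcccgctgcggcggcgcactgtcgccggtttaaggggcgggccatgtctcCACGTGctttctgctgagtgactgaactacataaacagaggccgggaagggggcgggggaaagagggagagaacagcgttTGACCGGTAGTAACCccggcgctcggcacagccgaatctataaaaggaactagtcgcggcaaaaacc
Srebf1, chr11:60210472-60210721, minus strand: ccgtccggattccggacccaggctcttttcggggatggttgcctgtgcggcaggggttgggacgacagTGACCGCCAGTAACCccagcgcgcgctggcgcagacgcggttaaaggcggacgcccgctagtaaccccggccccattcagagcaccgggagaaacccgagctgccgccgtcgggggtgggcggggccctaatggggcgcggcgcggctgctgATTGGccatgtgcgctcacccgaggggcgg
Mylip, chr13:45389492-45389741, plus strand: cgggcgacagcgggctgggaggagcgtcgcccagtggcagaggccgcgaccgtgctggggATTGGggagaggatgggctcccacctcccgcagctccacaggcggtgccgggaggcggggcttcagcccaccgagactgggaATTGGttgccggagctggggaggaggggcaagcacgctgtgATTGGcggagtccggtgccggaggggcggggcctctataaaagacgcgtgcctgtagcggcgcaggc
Hmgcs1, chr13:119690101-119690350, plus strand: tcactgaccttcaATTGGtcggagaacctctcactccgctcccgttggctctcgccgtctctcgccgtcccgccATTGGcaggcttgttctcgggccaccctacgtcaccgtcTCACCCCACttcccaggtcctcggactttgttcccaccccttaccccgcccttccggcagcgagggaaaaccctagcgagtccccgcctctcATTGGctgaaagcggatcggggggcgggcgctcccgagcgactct
Sc5d, chr9:42264301-42264550, minus strand: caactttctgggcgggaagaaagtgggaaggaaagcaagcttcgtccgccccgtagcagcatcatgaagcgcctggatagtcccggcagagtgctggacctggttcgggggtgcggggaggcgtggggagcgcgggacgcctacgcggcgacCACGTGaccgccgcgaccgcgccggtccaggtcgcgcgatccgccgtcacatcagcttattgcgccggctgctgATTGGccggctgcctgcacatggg

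The direct repeat of Abca1 lies at -67 to -53 from the start site and reads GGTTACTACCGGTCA on the opposite strand, and that of Srebf1 lies at -182 to -168 and reads GGTTACTGGCGGTCA. It was found in 2 of the 27 sterol genes that had a RefSeq promoter and in 2 of their 36 windows (5.56%), beside 0.621% of all 32851 windows. The highest Lym value was 21.9 times the lowest in Abca1 and 1.26 times the lowest in Srebf1, whose count covers all its start sites. The part of the repeat in these values was not tested. The sterol regulatory element of Hmgcs1 lies at -137 to -129. This spelling was found in 1 of the 27 genes and in 1 of their 36 windows (2.78%), beside 1.05% of all windows. The CCAAT box was found in 22 of the 27 genes and in 63.9% of their windows, beside 33.8% of all windows, which also include noncoding and predicted genes. E-boxes were found in 6 of the 27 genes, among them Abca1, Sc5d and Insig1, and in 16.7% of their windows, beside 6.02% of all windows. The GC-box was found in 22 of the 27 genes and in 69.4% of their windows, beside 32.7% of all windows. A match describes these letters only, and other spellings of each element were not searched.

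In transport and storage, Soat1 and Npc2 were lower and Npc1 higher in Lym at an unadjusted p under 0.05, and none passed the adjusted threshold with all 6 libraries. Soat1, the enzyme that stores cholesterol as esters (chromosome 1, 156424525 to 156474331, protein-coding), was at 1081, 2693 and 3010.0 in the Lym animals, against 4380.1, 3476 and 3674 in the Lin- animals. All Lym values lay below all Lin- values, and mouse 62 was far below the rest. The log2 fold change was -0.89 ± 0.34 (adjusted p = 0.46), -1.16 ± 0.31 without Lym mouse 87 (adjusted p = 0.0473), and -0.43 without Lym mouse 62 (adjusted p = 0.844).

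Npc2, a soluble carrier of cholesterol in the lysosome (chromosome 12, 84754562 to 84773152), was at 2705, 2669.9 and 2596 in the Lym animals, against 3468, 3075 and 3049.9 in the Lin- animals. The 3 Lym mice lay within 1.04-fold of each other and below all Lin- mice, and mouse 87 did not stand apart here. Its log2 fold change was -0.26 ± 0.11 (adjusted p = 0.467). Npc1, the lysosomal membrane protein that takes cholesterol over from Npc2 (chromosome 18, 12189692 to 12236400), was at 1320.0, 1364 and 977 in the Lym animals, against 903, 882 and 983 in the Lin- animals. Mouse 87 lay just under Lin- mouse 91, so the groups overlapped. The log2 fold change was 0.39 ± 0.16 (adjusted p = 0.467), and 0.54 ± 0.13 without mouse 87 (adjusted p = 0.0331). Npc1 shares exon bases with Rmc1 on the opposite strand. Stard4, a sterol carrier of the cytosol, was at 661, 489 and 641 in Lym, against 669.6, 708 and 589 in Lin-, with overlapping groups (adjusted p = 0.785). Neutrophil and monocyte precursor markers, 6 in all, summed to 75263, 68644 and 71164 in the Lym animals, against 88117, 150261 and 87868 in the Lin- animals, so the sum, most of it Mpo, was lower in Lym, as were Soat1 and Npc2. Mpo, Prtn3, Lyz2 and Ly6c2 lay lower in every Lym mouse than in any Lin- mouse, Ctsg overlapped, and Itgam stood at 597, 552 and 286 in the Lym animals, against 352, 445 and 321 in the Lin- animals. Their part in those values was not tested.

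**Figure D4:**
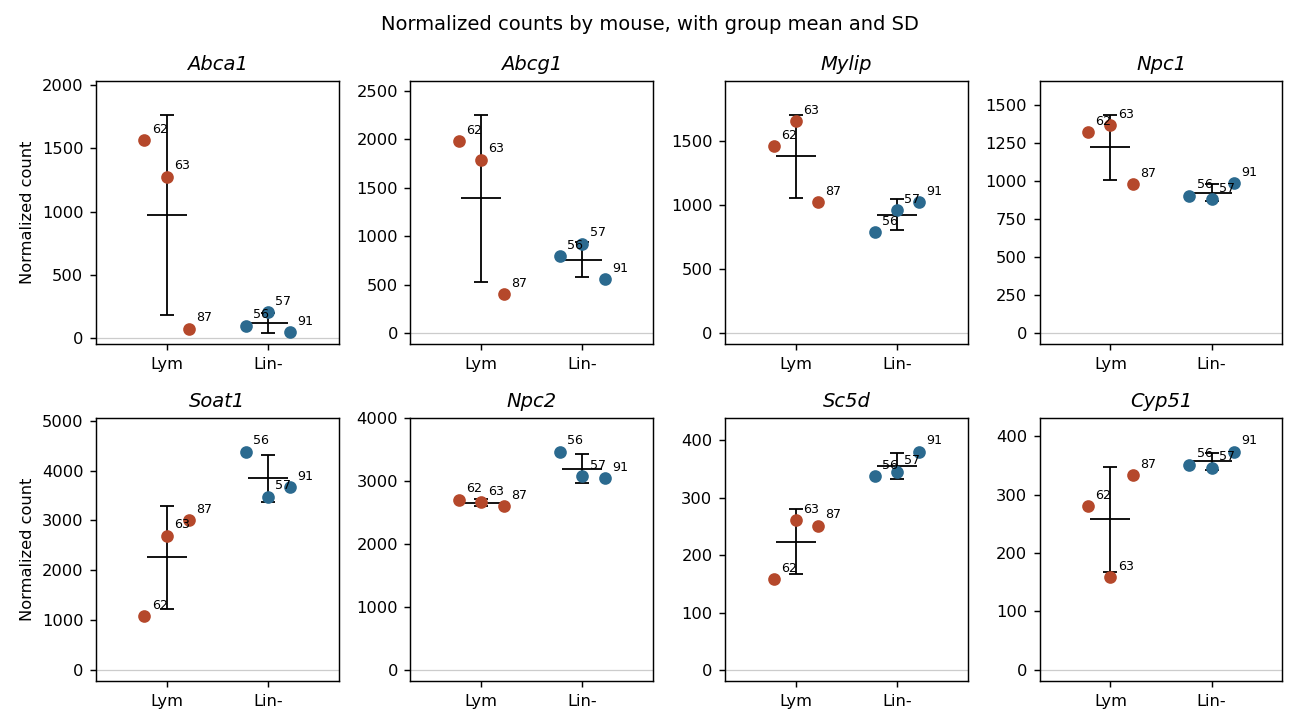
Normalized counts of 8 sterol genes by mouse, Lym left of Lin- in each panel, with mouse numbers beside the points and the group mean ± SD (n = 3 each) as a bar. Lym mouse 87 sat with the Lin- mice in Abca1 and Npc1, while in Soat1, Npc2, Sc5d and Cyp51 all 3 Lym mice lay below all 3 Lin- mice.

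Counted over the 32 tested genes, 7 had groups that did not overlap, 2 higher (Nr1h2 and Mylip) and 5 lower in Lym (Soat1, Npc2, Sc5d, Cyp51 and Msmo1). This is 21.9% of them, beside 15.6% of all genes tested, of which 8.49% were higher and 7.08% lower. Without Lym mouse 87 the count was 14 (43.8%), beside 43.4% of all genes, so as a set the sterol genes were apart about as often as genes in general. The median ratio of the highest to the lowest Lym mouse was 1.46 for the 32 genes and 1.52 for all genes, and that of the Lin- mice was 1.27 and 1.33.

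**Figure D5:**
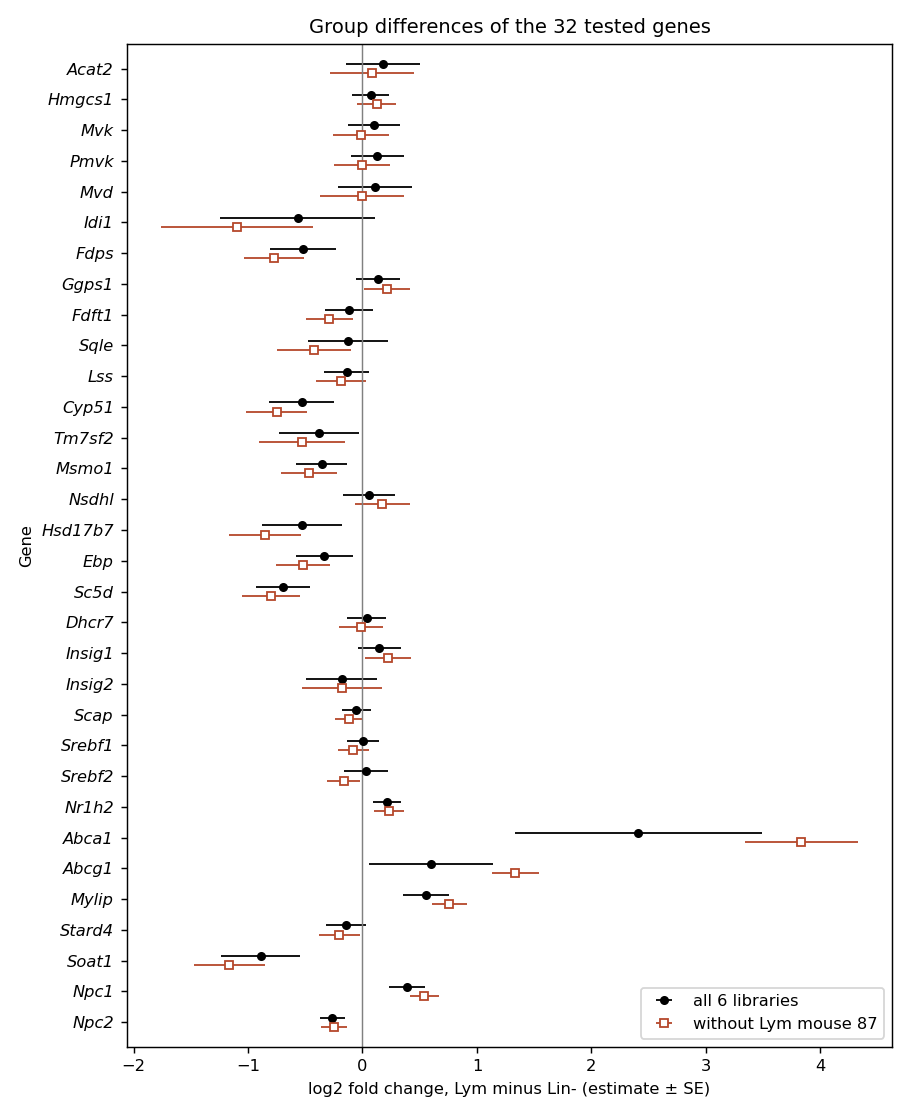
Points give the log2 fold change, Lym minus Lin-, of each of the 32 tested sterol genes with its standard error, from all 6 libraries (filled) and without Lym mouse 87 (open). Abca1 moved to 3.83 and Abcg1 to 1.34 without that mouse, while most enzymes of the mevalonate arm stayed near 0.

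Another 47 genes of sterol and isoprenoid metabolism that are not among the 33 were listed by role, and 42 of them passed the filter. In limma none of the 42 passed, with 6 at an unadjusted p under 0.05 (2 higher and 4 lower), beside 10.2% of all genes tested. Their median log2 fold change was -0.05. Groups were apart in 11 (26.2%, 2 higher and 9 lower), beside 15.6% of all genes, 8.49% higher and 7.08% lower. Osbpl5, an oxysterol-binding protein homologue of lipid transfer, was at 1209, 869 and 416 in the Lym animals, against 287, 482 and 274 in the Lin- animals. Lym mouse 87 lay below Lin- mouse 57, and the log2 fold change was 1.17 ± 0.39 (limma adjusted p = 0.441). Without mouse 87 it was 1.603 ± 0.268 (adjusted p = 0.0103), and with array weights the adjusted p was 0.0343. It was called by DESeq2 (adjusted p = 0.0209) and in the authors' deposited table (adjusted p = 0.0482), the only one of the 80 genes to be so.

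Rxra, a retinoid X receptor that pairs with LXR on DNA, was at 26.9, 50.4 and 200.1 in the Lym animals, against 303, 194 and 252 in the Lin- animals. It was lowest in the mice in which Abca1 was highest, with a log2 fold change of -1.88 ± 0.63 (adjusted p = 0.446, and 0.0306 with array weights), and -2.67 ± 0.37 without mouse 87 (adjusted p = 0.0055). Rxrb, another partner, had a log2 fold change of 0.12 ± 0.12 (adjusted p = 0.738). The corepressor Ncor1 was at 20064, 18774 and 15762 in the Lym animals, against 15274, 14095 and 14364 in the Lin- animals, with a log2 fold change of 0.31 ± 0.12 (adjusted p = 0.461, and 0.0429 without mouse 87). Fnta, the shared subunit of the enzymes that attach farnesyl and geranylgeranyl groups to proteins, was at 890.5, 877 and 848 in the Lym animals against 1125, 1131 and 1124 in the Lin- animals. Its 2 ranges were narrow and apart, with a log2 fold change of -0.37 ± 0.12 (adjusted p = 0.441). Of the 5 genes listed under oxysterol synthesis, Ch25h and Cyp7b1 had no read in any library and Cyp46a1 was at most 2.24. Cyp27a1 was read throughout, at 59.4, 129.8 and 42.9 in the Lym animals, against 92.6, 168 and 102 in the Lin- animals (adjusted p = 0.581). Cyp39a1 was at 16.8, 12.3 and 34.3 in Lym, against 37.1, 47.5 and 37.1 in Lin-, with groups apart (adjusted p = 0.516). The LXR target Pltp was at most 2.86. Lpcat3, another LXR target, was at 504, 596 and 659 in the Lym animals, against 636, 529 and 678 in the Lin- animals. Its groups overlapped, with a log2 fold change of -0.07 ± 0.17.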

How the data were processed

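Values came from a table of the whole series. Per the submitters' processing notes, the tools were STAR 2.6.1d, featureCounts 1.6.4, Trim Galore 0.6.4, bcl2fastq and DESeq2, and the build was GRCm38.p6. As deposited, each library's column is a signal: the count of each gene scaled by a size factor of that library, and 100% of values up to 10000 were whole multiples of 1 step (tolerance 0.01), so whole reads were recovered. Other deposited columns, per the file headers, include a mean count, an exon length, a log2 fold change with its standard error, a Wald score and a raw and adjusted p-value. The deposited fold change runs Lin- over Lym and was turned here to Lym minus Lin-. Members and lists were chosen with earlier results of these data known, and some genes of the pathway are not reported here.

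limma 3.58.1 (R 4.3.3, trend option, pseudocount 2) was fitted to all 14273 genes passing the filter, with edgeR 4.0.16 and DESeq2 1.42.0 on recovered reads as alternatives, next to TMM scaling, other filters and pseudocounts, array weights and leaving out each mouse. The count tests called 0 genes in edgeR and 203 in DESeq2. The scripts were checked on simulated data. Values in every library were given for members with an unadjusted p under 0.05 or groups apart and the 2 most abundant others of each role, and Idi1, Fdft1, Sqle, Hsd17b7, Srebf1, Insig1, Insig2 and Nr1h3 were added after their values were seen. Of the other pathway genes, those called by limma or in the authors' table and the 2 of lowest p in each direction were named. Rxrb, Ch25h, Cyp7b1, Cyp46a1, Cyp27a1, Cyp39a1, Pltp and Lpcat3 were added after their values were seen. Levels per kilobase use the exon length in the table. GENCODE M21 holds 32 of the 33 identifiers, and 12 of the 33 share exon bases with another gene, 8 of them only on the opposite strand. Whether counting used the strand is not given in the sources used here. Promoters are RefSeq windows of GRCm38.p6.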

Additional observations from a re-analysis of the deposited data

How the results depend on the processing

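No sterol gene was called with TMM scaling, edgeR, DESeq2, no filter on low values or a pseudocount of 0.5 or 10. Array weights called 2, beside 4.62% of all genes. Leaving out 1 mouse at a time gave 0 to 5 called sterol genes, 5 without Lym mouse 87 (beside 9.67% of all genes) and 0 otherwise. Over the whole table the count of 0 became 203 with DESeq2, 5 with no filter, 1 with a pseudocount of 10 and 660 with array weights, and 0 to 1348 without 1 mouse, 1348 without Lym mouse 87 and 1 without Lin- mouse 91. Among the 42 other pathway genes tested, DESeq2 called 1, beside 1.16% of all genes, and array weights called 2, beside 4.62%. Leaving out 1 mouse gave 0 to 4 calls among them, 4 without Lym mouse 87, beside 9.67% of all genes. The median log2 fold change of the sterol genes ran from -0.14 (without Lym mouse 87) to 0.0186 when 1 mouse was left out. In the same runs, 7 to 14 of the 32 had groups apart, beside 21.9% to 43.4% of all genes, with both highest without Lym mouse 87. With TMM the number apart was 6, and the share over all genes was not counted there. Why these moved was not tested. Of 182 fold changes of 14 named genes under 13 alternatives, all kept their direction and 13 passed the threshold that they missed with all 6 libraries in limma. Most of the 14 were picked for a low p or groups apart in these data, so a kept direction was likely from the start. Other sterol genes changed direction without Lym mouse 87, among them Mvk (0.10 to -0.01) and Srebf2 (0.03 to -0.16). The median over all genes tested was 0.19 with DESeq2 and 0.15 with no filter, both over more genes. With TMM the ratio of summed enzyme levels was 0.883, against 0.893. No paired analysis was possible because the groups share no mouse number and the labels give no pairing. With 3 mice a group, depth and the spread between animals limit what can be called.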
